A study of Schizosaccharomyces pombe with 8 samples.

Results

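The comparison described here is the loss of glutathione reductase in growing cells of the fission yeast Schizosaccharomyces pombe to which no oxidant was added. It uses 4 of the 8 RNA-seq libraries of the study, 2 of untreated wild type (strain 972) and 2 of an untreated strain carrying a deletion of pgr1. Both strains were grown in YE5S, a yeast extract medium with supplements, to an OD600 of 0.5 with the culture at 30 °C, hot phenol was used for the RNA, and poly(A) RNA was converted to stranded libraries. The other 4 libraries, the same strains after 1 mM hydrogen peroxide (H2O2) for 30 min, gave a second reading of the strain difference and entered the same fit, so they share its estimate of the spread. With the 4 untreated libraries alone 1017 genes were higher and 674 lower, against the 1144 and 798 reported below. The mutant is 1 deletion strain, and nothing in the labels ties the 2 replicates to different cultures, so the errors and p-values below measure the spread between these samples only. The study's title names its question, whether the glutathione system keeps thiols in balance in mitochondria or in the cytosol.

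Glutathione is a small thiol peptide that cells hold mostly in its reduced form. Glutathione peroxidases, glutaredoxins and transferases use it, and the disulfide that results is returned to the thiol by glutathione reductase with electrons from NADPH. A separate route, thioredoxin reductase with thioredoxins and the peroxiredoxin Tpx1, also draws on NADPH. In fission yeast the transcription factor Pap1 responds to oxidation of its own cysteines, the kinase Sty1 with the factor Atf1 drives a general stress programme, and the repressors Fep1 and Php4, both of which work with the glutaredoxin Grx4, set iron uptake and iron use.

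Whole-number counts, called reads below, could be recovered from the deposited normalized counts, and the 4 untreated libraries held 12179424 to 14125543 of them. Replicates differed by more than read sampling allows, with a chi-square per degree of freedom of 21.9 in wild type and 18.2 in the mutant. The wild-type libraries stood apart from each other on iron uptake genes and on gpd3. Levels are the authors' normalized counts. A log2 fold change is the mutant minus wild type on log2(normalized count + 1), given as value ± SE from limma over 5001 tested genes with n = 2 libraries a group, and a gene is called where its Benjamini-Hochberg adjusted p is below 0.05. Each library pools a culture, so a change in the share of cells that express a gene and a change in RNA per cell cannot be told apart.

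The deleted gene itself, pgr1 (SPBC17A3.07, glutathione reductase), had 4939 and 4805 normalized counts in wild type and 159 and 91.4 in the mutant. Both mutant libraries were thus far below both wild-type libraries, a 38.9-fold difference in means and a log2 fold change of -5.32 ± 0.21 (limma adjusted p = 1.74e-07). The low remaining signal was not traced to any part of the gene, since the table gives 1 value a gene. Of the 2 neighbouring genes SPBC17A3.08, a deoxyribonuclease gene, rose from 903 and 880 to 1695 and 1549, and SPBC17A3.06 was at -0.40 ± 0.16 and was not called (limma adjusted p = 0.0752). Of the exons of SPBC17A3.08, 77.6% lie opposite another gene, so its reads may not all be its own if strand was not used in counting.

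Without added peroxide 1144 genes were higher in the mutant, 22.9% of those tested, and 798 were lower, 16.0%, so that 38.8% were called in either direction. Each count of list members below is to be read beside these shares. The rises were larger than the falls. At least 2-fold rises numbered 279 (5.58% of tested genes) against 51 falls (1.02%), at least 4-fold rises 115 against 6, and 32 genes rose at least 16-fold. The median called rise was 0.54 and the median called fall -0.41, both on the log2 scale, while the median over all tested genes was -0.001. No called gene had values that overlapped between the groups. With 2 libraries a group a call all but requires this. Where separate strains are described for a called gene below, that is therefore no support beyond the call. The balance of directions depended on scaling: quantile normalization gave 982 higher (19.6%) and 1451 lower (29.0%), so rises made up 40.4% of calls in place of 58.9%, although no gene called under both scalings changed sign. Leaving out wild-type replicate 2 reduced the genes called lower to 484, and leaving out mutant replicate 1 reduced them to 472.

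**Figure D1:**
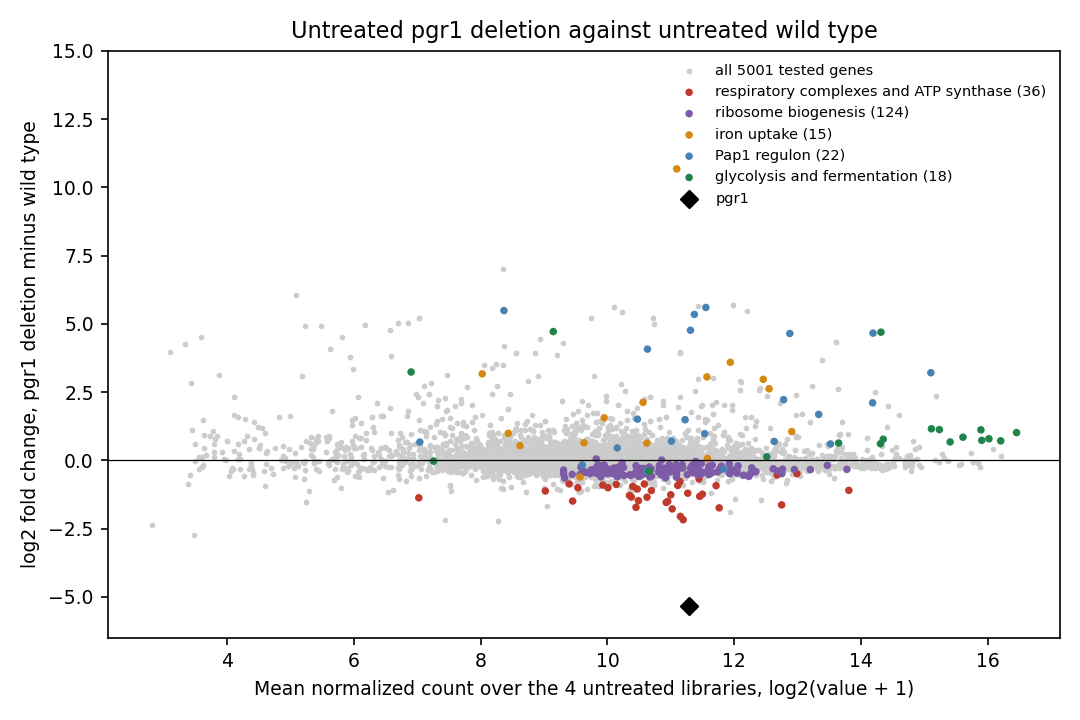
Each point is 1 of 5001 tested genes, with its mean normalized count over the 4 untreated libraries as log2(value + 1) on the horizontal axis and the log2 fold change, mutant minus wild type, on the vertical axis; colours mark 5 gene lists and pgr1. The respiratory genes all lie below 0, ribosome biogenesis genes form a narrow band just below 0, and the highest point is the iron uptake gene shu1 at 10.67.

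Genes that make, move and use glutathione were mostly higher. Of 25 members tested, 13 rose and 3 fell, or 5 under quantile normalization, pgr1 among them, with a median of 0.40. Both enzymes of glutathione synthesis rose. The first, glutamate-cysteine ligase gcs1, had 3217 and 3298 normalized counts in wild type and 4950 and 5191 in the mutant (0.64 ± 0.06, limma adjusted p = 6.89e-05). Glutathione synthetase gsa1 went from 1799 and 1899 to 2607 and 2461 (0.45 ± 0.07, limma adjusted p = 7.65e-04). For both genes the 2 libraries of a strain lay close together and well apart from the other strain. The plasma membrane glutathione transporter gene pgt1 rose by 0.70 ± 0.12 and ggt2, a gamma-glutamyltranspeptidase gene, by 0.67 ± 0.06, whereas ggt1 was at -0.33 ± 0.13 and was not called. Transporter genes that carry glutathione conjugates or phytochelatins into the vacuole were split, with hmt1 at 0.52 ± 0.09 and abc2 at 0.40 ± 0.06 higher and abc4 at -0.28 ± 0.08 lower. The abc4 call was lost without wild-type replicate 2 or without mutant replicate 2.

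Among the enzymes that spend glutathione, the transferase gene gst2 stood out. It had 1374 and 1465 normalized counts in wild type and 34098 and 37793 in the mutant, a 25.3-fold difference (4.66 ± 0.09, limma adjusted p = 3.52e-09). Both mutant libraries were far above both wild-type ones. The transferase genes gst3 and gst4 rose by 0.82 ± 0.08 and 0.50 ± 0.10, and gst1, at 53.0 to 68.7 normalized counts in all 4 libraries, was at -0.08 ± 0.25 and was not called. The glutathione peroxidase gene gpx1 had 2178 and 2794 in wild type and 6561 and 8220 in the mutant (1.57 ± 0.15, limma adjusted p = 6.39e-05). The formaldehyde dehydrogenase gene fmd2, whose enzyme acts on a glutathione adduct, rose by 1.14 ± 0.10, and glo2, which returns glutathione at the end of the methylglyoxal pathway, by 0.76 ± 0.08. The first enzyme of that pathway, glo1, was at -0.13 ± 0.06 and was not called.

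The 5 glutaredoxins went different ways. Dithiol glutaredoxin gene grx1 rose from 2463 and 3270 to 5698 and 7142 (1.17 ± 0.16, limma adjusted p = 5.84e-04). The mitochondrial monothiol glutaredoxin gene grx5, which hands on iron-sulfur clusters, fell from 1214 and 1050 to 838 and 779 (-0.48 ± 0.10, limma adjusted p = 0.00519). In both genes the strains did not overlap. The dithiol glutaredoxin gene grx2 had 817 and 866 in wild type and 791 and 889 in the mutant, and the cytosolic monothiol genes grx3 and grx4, whose proteins act on the iron regulators, were at -0.11 ± 0.15 and 0.02 ± 0.08. None of grx2, grx3 and grx4 was called, and in each the strains overlapped.

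Genes of the thioredoxin route, the other consumer of NADPH for thiols, were higher at most steps. Of 10 members 8 rose and none fell, with a median of 0.74. Peroxiredoxin tpx1 had 7069 and 6919 normalized counts in wild type and 32099 and 28305 in the mutant (2.11 ± 0.09, limma adjusted p = 4.42e-07). The sulfiredoxin gene srx1, whose enzyme repairs overoxidised peroxiredoxin, went from 158 and 194 to 2596 and 3390, a 17.0-fold difference (4.07 ± 0.14, limma adjusted p = 1.18e-07). Thioredoxin reductase trr1 rose less, from 4834 and 4854 to 7807 and 7851 (0.69 ± 0.08, limma adjusted p = 2.66e-04). The replicates of trr1 were nearly equal within each strain. Both methionine sulfoxide reductase genes rose, mxr1 by 1.10 ± 0.10 and mxr2 by 0.88 ± 0.12, as did the nuclear thioredoxin peroxidase gene bcp1 by 0.79 ± 0.09. The cytosolic thioredoxin gene trx1 rose by 0.60 ± 0.14, a call lost without wild-type replicate 1 or mutant replicate 2. The mitochondrial thioredoxin gene trx2 had 1129 and 1191 in wild type and 1163 and 1243 in the mutant and was not called (0.05 ± 0.07), and neither was the thioredoxin-like gene txl1 (0.06 ± 0.09).

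The cytosolic superoxide dismutase gene sod1 rose by 0.57 ± 0.15 and its copper chaperone gene ccs1 by 0.84 ± 0.07, from 1775 and 1719 to 3078 and 3182. The mitochondrial manganese superoxide dismutase gene sod2 fell, from 2434 and 2490 to 1854 and 1908 (-0.39 ± 0.06, limma adjusted p = 0.00124). Catalase gene ctt1 had 953 and 949 in wild type against 1574 and 1077 in the mutant. The catalase rise of 0.45 ± 0.15 was lost without wild-type replicate 1, wild-type replicate 2 or mutant replicate 1. The sod1 rise was lost without wild-type replicate 1 or mutant replicate 2. The list for detoxification of peroxide and superoxide holds these genes with gpx1, pmp20 and tpx1, which are already counted in the lists above. Of its 7 genes 6 rose and 1 fell, with 3 higher when wild-type replicate 1 was left out.

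**Figure D2:**
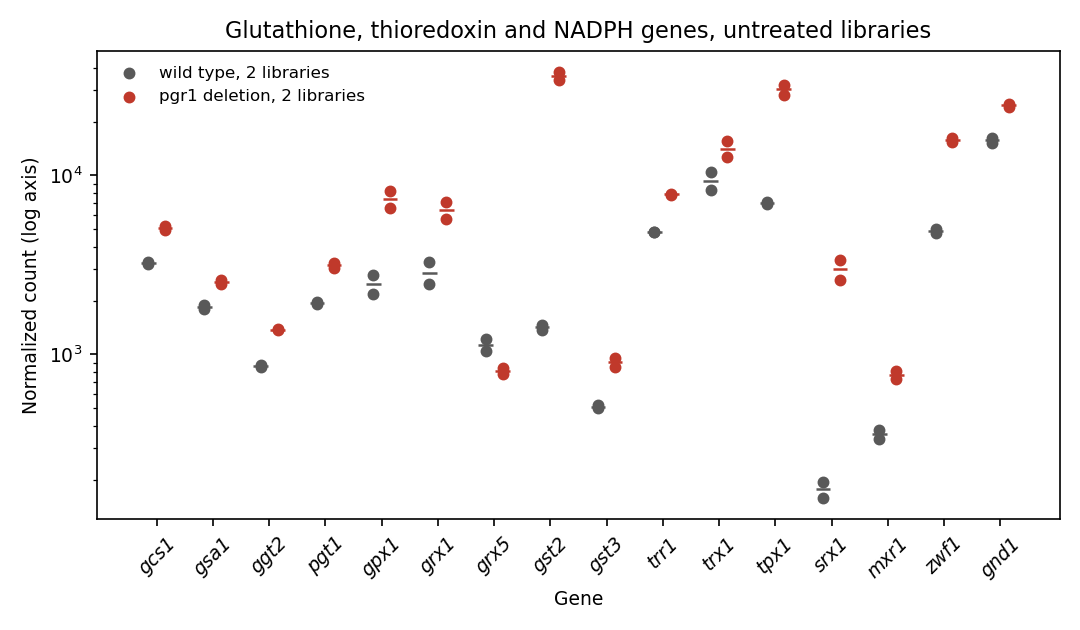
Normalized counts on a log axis of 16 glutathione, thioredoxin and NADPH genes in the 2 wild-type (grey) and 2 mutant (red) untreated libraries; points are libraries and short lines are group means. The strains do not overlap for any gene drawn, gst2 and srx1 are furthest apart, and grx5 is the gene drawn that is lower in the mutant.

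Targets of Pap1 were among the largest rises in the untreated mutant. Of 22 members 18 rose and none fell, with a median of 1.60, and 13 rose at least 2-fold. The rises include gst2, trr1, trx1, tpx1, srx1 and ctt1, already counted in the lists above, and pap1 itself. They also include caf5, bfr1, pmd1 and zwf1, which are counted again below. The factor's own gene pap1 had 2035 and 1959 normalized counts in wild type and 3909 and 3953 in the mutant (0.98 ± 0.07, limma adjusted p = 7.87e-06). The quinone reductase gene obr1 rose from 6922 and 6785 to 59870.5 and 67073 (3.21 ± 0.10, limma adjusted p = 5.34e-08). Both pap1 and obr1 were tight within a strain and separate between strains. The NADH-dependent flavin oxidoreductase gene SPBC23G7.10c went from 102 and 157 to 5090 and 5243 (5.34 ± 0.17) and the short-chain dehydrogenase gene SPCC663.08c from 127 and 114 to 5607 and 6160 (5.60 ± 0.09). The dehydrogenase gene osr1 had 172 and 187 against 4759 and 5032 (4.76 ± 0.08). Of the 31-base stretches of SPCC663.08c 15.9% occur in another gene, and of osr1 16.7%, so their reads could be shared with relatives.

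Drug and metabolite exporters controlled by Pap1 rose with them. The exporter gene caf5 had 578 and 569 normalized counts in wild type and 12813 and 16119 in the mutant, a 25.2-fold difference (4.65 ± 0.11, limma adjusted p = 2.15e-08). The brefeldin A exporter gene bfr1 rose by 2.22 ± 0.09 and the leptomycin exporter gene pmd1 by 1.49 ± 0.08. Across 19 drug transporter genes 11 rose and 2 fell, abc1 at -0.60 ± 0.14 and abc4, and 1 fell without wild-type replicate 2 or mutant replicate 2. No member of the Pap1 list fell, against 1 under quantile normalization and 1 without wild-type replicate 1. The 3 members below 0, sro1 (-0.40 ± 0.28), mfs3 (-0.32 ± 0.14) and SPAC5H10.10 (-0.17 ± 0.16), were not called and had overlapping strains.

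Genes for the supply of NADPH, on which both thiol routes depend, were higher at the oxidative steps. Glucose-6-phosphate dehydrogenase zwf1 had 5038 and 4756 normalized counts in wild type and 15365 and 16093 in the mutant, a 3.21-fold difference (1.68 ± 0.10, limma adjusted p = 2.13e-06). The 6-phosphogluconate dehydrogenase gene gnd1 rose from 16128 and 15231 to 25205 and 24049 (0.65 ± 0.09), and the lactonase gene pgl1 between them rose by 0.54 ± 0.06. The strains were separate at all 3 steps. Transaldolase tal1 rose by 0.78 ± 0.08, and ribose 5-phosphate isomerase rki1 fell (-0.41 ± 0.07). Of 14 members of the pentose phosphate and NADPH list 9 rose and 1 fell, with a median of 0.48. The NADH kinase gene pos5 was at -0.11 ± 0.10 and was not called.

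Of 22 genes of sulfur assimilation and methionine 10 rose and 5 fell, or 8 under quantile normalization, with a median of 0.18. They lead to cysteine, the amino acid that carries the thiol of glutathione, and to methionine. The sulfate transporter genes sul1 and sul2 rose from 1290 and 992 to 5010 and 4040 (1.99 ± 0.17) and from 764 and 707 to 3270 and 2765 (2.03 ± 0.11). Homoserine O-acetyltransferase cys2 had 1646 and 1386 in wild type and 5205 and 4711 in the mutant (1.71 ± 0.10, limma adjusted p = 1.67e-06). Cysteine synthase cys11 rose from 2057 and 1967 to 4692 and 4352 (1.17 ± 0.07), and homocysteine synthase met17 by 1.46 ± 0.30. On the steps that activate and reduce sulfate, sua1 (0.96 ± 0.21) and met16 (0.39 ± 0.07) rose and the adenylylsulfate kinase gene met14 fell (-0.51 ± 0.09), with 91.9% of its exons opposite another gene. The sua1 call was lost without mutant replicate 1. The uroporphyrin methyltransferase gene met1, of the route to the sirohaem of sulfite reductase, rose from 1705 and 1377.5 to 5015 and 3770.5 normalized counts. The 2 wild-type libraries of met17 were unlike, at 2284 and 1088, but both were below the mutant's 4777 and 3949. The methylenetetrahydrofolate reductase genes met9 (-0.43 ± 0.07) and met11 (-0.48 ± 0.09), which supply methyl groups for methionine, fell, and so did met3, cystathionine gamma-synthase (-0.38 ± 0.07). Sulfite reductase gene sir1 had 8275 and 5744 in wild type and 8351 and 5723 in the mutant, the same spread in each strain, and was not called. The methionine synthesis genes met26 (-0.17 ± 0.12) and met6 (-0.12 ± 0.08) and the S-adenosylmethionine synthetase gene sam1 (-0.19 ± 0.16) were not called either.

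Most genes of the general stress programme were higher in the absence of added peroxide: 22 of 25 core stress genes rose and none fell, with a median of 1.72. These rises include gpx1 and ctt1, already counted above, and hsp16, gut2, zym1 and isp6, counted again below. The stress protein gene ddr48 had 131 and 170 normalized counts in wild type and 6879 and 8990 in the mutant (5.71 ± 0.16, limma adjusted p = 4.03e-08). The metallothionein gene zym1 went from 185 and 226 to 7835 and 10599.9 (5.47 ± 0.18), and the calcium pump gene cta3 from 30.6 and 61.1 to 1499 and 1836 (5.23 ± 0.61). In all 3 genes both mutant libraries were far above both wild-type libraries. Trehalase ntp1 rose by 2.04 ± 0.06, trehalose-phosphate synthase tps1 by 1.65 ± 0.10 and the glycerol-making enzyme gene gpd1 by 1.64 ± 0.13. The factor gene atf1 rose by 0.83 ± 0.07, while the kinase gene sty1 (-0.16 ± 0.09), the oxidative stress factor gene prr1 (0.03 ± 0.07) and the gene of Atf1's partner, pcr1 (0.15 ± 0.08) were not called.

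Chaperones of the cytosol responded in part. The small heat shock protein gene hsp16 rose from 1416 and 1662 to 18774 and 20936 normalized counts (3.69 ± 0.11, limma adjusted p = 5.09e-08), the Hsp70 gene ssa1 by 2.37 ± 0.13 and the disaggregase gene hsp104 by 1.60 ± 0.18, and the factor gene hsf1 rose by 0.58 ± 0.06. The Hsp70 gene ssa2 (0.15 ± 0.14) and the Hsp90 gene hsp90 (-0.23 ± 0.13) were not called, and the ribosome-bound chaperone genes zuo1 (-0.37 ± 0.07) and ssz1 (-0.22 ± 0.07) fell, the latter not without wild-type replicate 2 or mutant replicate 2. In all 10 of 20 rose and 2 fell, or 9 and 6 under quantile normalization. Oxidative folding in the secretory pathway showed smaller rises. The thiol oxidase gene ero11 went from 1979 and 2217 to 3955 and 4424 (1.00 ± 0.08) and erv2 rose by 0.58 ± 0.10, while the ER Hsp70 gene bip1 (0.05 ± 0.09) was not called. Of 16 genes of that list 8 rose, 5 when wild-type replicate 1 or mutant replicate 2 was left out, and none fell, against 2 under quantile normalization.

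Subunit genes of the respiratory complexes were lower. All 36 tested nuclear genes for subunits of complexes II, III and IV and ATP synthase fell, with a median of -1.16 and the smallest fall at -0.44, against 16.0% of all tested genes called lower. Together they made up 1.13% of normalized counts in each wild-type library and 0.484% and 0.479% in the mutant libraries. The fall was largest in the median of complex III (-1.72, 9 genes), followed by complex IV (-1.24, 8 genes), ATP synthase (-1.10, 15 genes) and complex II (-0.73, 4 genes). These differences between complexes were not tested. Leaving out 1 library at a time kept all 9 and all 8 genes of complexes III and IV called lower and 14 or 15 of ATP synthase. In complex II 2 of 4 remained called without wild-type replicate 1 or without mutant replicate 2.

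Complex III, which passes electrons from ubiquinol to cytochrome c, held 7 of the 15 lowest fold changes among the genes named. Its subunit gene qcr7 had 3556 and 3768 normalized counts in wild type and 917 and 849 in the mutant, a 4.15-fold difference (-2.05 ± 0.08, limma adjusted p = 1.69e-07). Cytochrome c1 gene cyt1 fell from 5434 and 5260 to 1684 and 1521 (-1.74 ± 0.09). The core subunit genes qcr1 and qcr2 differed in size, at -1.63 ± 0.07 and -0.92 ± 0.07, and every one of their mutant values was below every wild-type value. The Rieske protein gene rip1 (-2.18 ± 0.14) and qcr9 (-1.72 ± 0.09) fell too, with all of the exons of rip1 and 81.8% of those of qcr9 opposite another gene. Cytochrome c itself, cyc1, which carries the electrons onward, went from 6429 and 5606 to 2377 and 2144 (-1.41 ± 0.12).

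In complex IV the falls ran from -1.54 ± 0.12 in cox5, with 3062 and 2727 normalized counts in wild type and 1099 and 894 in the mutant, to -0.95 ± 0.08 in cox12. In ATP synthase the catalytic beta subunit gene atp2 fell from 20051 and 19053 to 9266 and 9007 (-1.10 ± 0.07), and its alpha partner atp1 less, from 9508 and 9481 to 6954 and 6581 (-0.49 ± 0.07). The inhibitor of the enzyme, inh1, fell by 1.49 on the log2 scale, from 1078 and 985 to 364 and 368. The smallest fall was in atp15 (-0.44 ± 0.13), a call lost without wild-type replicate 2 or either mutant replicate. Of the exons of atp1, 56.2% lie opposite another gene. Fission yeast has single-protein NADH dehydrogenases in place of complex I, and both fell: nde1 from 8082 and 8044 to 2987 and 2949 (-1.44 ± 0.07) and ndi1 from 1853 and 1672 to 954 and 758 (-1.05 ± 0.12). Not every gene that feeds electrons to the chain fell. In a list of 10 other respiratory genes, mostly dehydrogenases and with nde1, ndi1 and cyc1 among them, 6 fell and 2 rose. The glycerol-3-phosphate dehydrogenase gene gut2 rose from 453 and 459 to 851 and 584 (0.63 ± 0.14), and the sulfide quinone oxidoreductase gene hmt2 rose by 0.48 ± 0.15, a call lost without wild-type replicate 2 or mutant replicate 1. The proline dehydrogenase gene put1 (-0.17 ± 0.08) and the flavoprotein gene etf1 (0.02 ± 0.07) were not called.

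Genes that build these complexes were split. Of 35 assembly factors 8 fell and 5 rose, beside 16.0% and 22.9% of all tested genes. The median was -0.15, and quantile normalization gave 16 lower and 4 higher. With wild-type replicate 2 or mutant replicate 1 left out 4 fell, and with wild-type replicate 1 or either mutant replicate left out 3 rose. Cytochrome oxidase assembly factor coa2 fell from 422 and 593 to 82.7 and 137 (-2.22 ± 0.33), and the haem lyase gene cyt2, which attaches haem to cytochrome c1, fell from 1032 and 1161 to 475 and 588.5 (-1.05 ± 0.12). Both were below wild type in each mutant library. The largest rise was in coa3 (1.01), and the assembly genes shy1 (0.44 ± 0.08, with 59.1% of exons opposite another gene) and cbp6 (0.49 ± 0.10) rose less. Genes for the synthesis of ubiquinone stayed near 0: 4 of 13 rose by at most 0.35 and none fell, beside 22.9% and 16.0% of all tested genes. Their median was 0.03 (-0.02 under quantile normalization), and 2 were higher without wild-type replicate 2 or mutant replicate 2. Genes of inner membrane architecture moved with those of the chain in part. The MICOS subunit genes mic26 (794 and 817 against 254 and 254, -1.66 ± 0.08), mic19 (-1.15 ± 0.10) and mic10 (-0.99 ± 0.12) fell. The cardiolipin phospholipase gene cld1 rose from 665 and 704 to 3012 and 3097 (2.16 ± 0.07). The phosphate carrier family gene SPBC1703.13c, a product named as an inorganic phosphate transporter, fell from 6225 and 6023 to 1710 and 1610 (-1.88 ± 0.07).

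**Figure D3:**
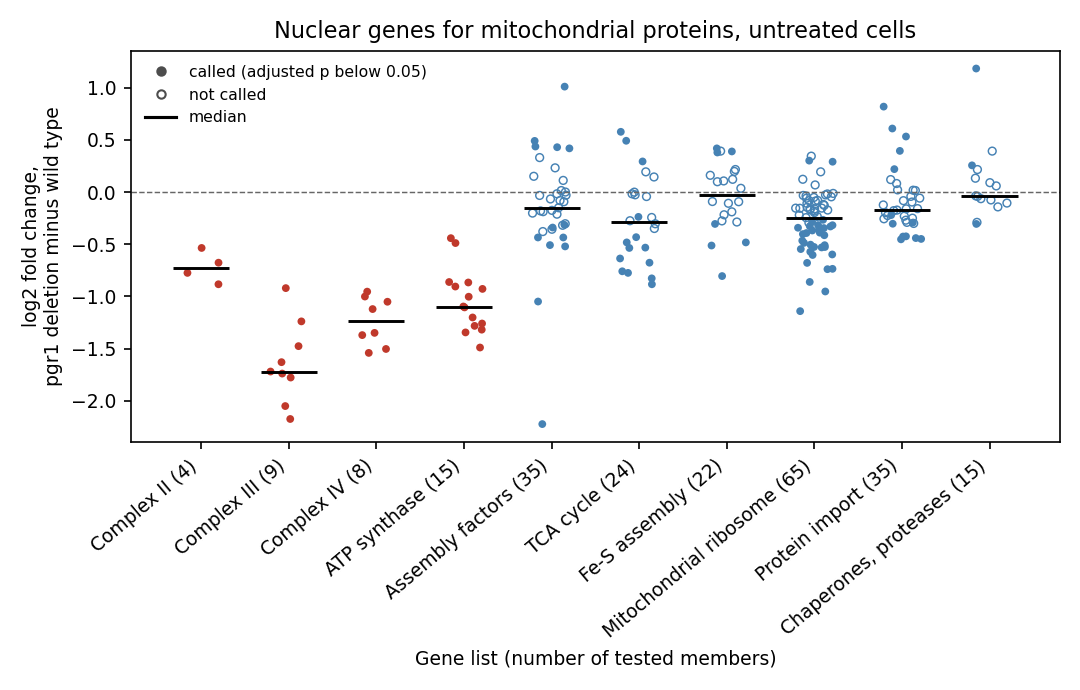
Log2 fold change, mutant minus wild type, of the tested nuclear genes in 10 mitochondrial gene lists; filled points are called, open points are not, and bars are medians. Every gene of complexes II, III, IV and ATP synthase (red) is below 0, whereas the lists for assembly, TCA cycle, iron-sulfur assembly, ribosome, import and chaperones (blue) have medians between -0.29 and -0.03. The complex II genes are drawn in the TCA cycle list as well.

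Genes of other mitochondrial functions moved less or not at all. In the mitochondrial ribosome 31 of 65 genes fell and 2 rose, with a median of -0.25. The falls numbered 21 to 25 with any 1 library left out and 41 under quantile normalization. Without wild-type replicate 2 or either mutant replicate 1 gene rose. The gene mrpl16 went furthest, from 1014 and 1054 to 450 and 486 (-1.14 ± 0.08). In the tricarboxylic acid cycle 11 of 24 fell and 3 rose, and these falls include the 4 complex II genes already counted above. Fumarase fum1 fell from 3620 and 3381 to 2201 and 1940 (-0.76 ± 0.08), while the isocitrate dehydrogenase genes idh1 (0.29 ± 0.07) and idh2 (0.58 ± 0.08) rose and the pyruvate dehydrogenase gene pda1, with 8228 and 7755 against 8089 and 7877, was not called. In the cycle 7 genes fell without wild-type replicate 1 or mutant replicate 2 and 5 rose without wild-type replicate 1, and idh1 was not called without wild-type replicate 2 or either mutant replicate. Protein import had 8 of 35 genes lower and 5 higher, beside 16.0% and 22.9% of all tested genes. It had 13 lower without wild-type replicate 1, 3 without wild-type replicate 2 and 2 without mutant replicate 1. Genes of the thiol relay of the intermembrane space rose, with the sulfhydryl oxidase gene erv1 at 0.82 ± 0.09 (338 and 328 against 577 and 599) and mia40 at 0.39 ± 0.07. Mitochondrial chaperones and proteases were largely not called: 2 of 15 rose, the disaggregase gene hsp78 from 3914 and 3536 to 8532 and 8375 (1.18 ± 0.11) and the prohibitin gene phb2 (0.26 ± 0.07), and 1 fell, or 2 under quantile normalization. The phb2 call was lost without either wild-type replicate or mutant replicate 2, and the chaperonin genes mcp60 (0.22 ± 0.11) and hsp10 (0.06 ± 0.07, with all of its exons opposite another gene) were not called.

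Iron-sulfur proteins and the machinery that builds them did not move alike. Of 22 assembly genes 4 fell, among them grx5 described above, and 3 rose, with a median of -0.03. The shares over all tested genes were 16.0% lower and 22.9% higher. Under quantile normalization 7 fell and the median was -0.14, and without mutant replicate 1 a single gene rose. The late-acting scaffold gene isa1 fell from 1321 and 1171 to 696 and 727 (-0.81 ± 0.14) and isd11, partner of the cysteine desulfurase, from 1158 and 1230 to 817 and 856 (-0.51 ± 0.07). The desulfurase gene nfs1 itself (0.11 ± 0.06), the frataxin gene fxn1 (0.04 ± 0.10) and nbp35 of the cytosolic route (0.10 ± 0.11) were not called. The scaffold gene isu1 (0.39 ± 0.10), the exporter gene atm1 (0.42 ± 0.11) and dre2 of the cytosolic route (0.38 ± 0.07) rose, and of these dre2 kept its call with any 1 library left out. The isu1 call was lost without wild-type replicate 1 or mutant replicate 1, and the atm1 call without wild-type replicate 2 or mutant replicate 1.

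Of 22 genes for proteins that carry iron-sulfur clusters 10 fell and none rose, with a median of -0.35. When wild-type replicate 1 or mutant replicate 2 was left out 6 fell. The falls include rip1 and sdh2, already counted with the respiratory complexes. Dihydroxy-acid dehydratase ilv3, of branched-chain amino acid synthesis, went from 11248 and 8954 to 7285 and 6155 (-0.58 ± 0.13), and biotin synthase bio2 from 4583 and 3829 to 2709 and 2390 (-0.72 ± 0.09). The ribosome recycling protein gene rli1, whose protein acts in the cytosol, fell from 7184 and 6366 to 5147 and 4823 (-0.44 ± 0.10). For these 3 genes the lower wild-type library was above the higher mutant library. The nuclear DNA polymerase gene cdc6 (0.01 ± 0.09, with 61.8% of its exons opposite another gene), the primase gene spp2 (-0.03 ± 0.07) and the helicase gene dna2 (-0.13 ± 0.09) were not called.

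Iron acquisition genes were mostly higher, some by large factors. Of 15 members 12 rose and 1 fell, with a median of 1.56. The haem transporter gene shu1 had 1 and 3 recovered reads in wild type and 4185 and 5920 in the mutant, a ratio of normalized levels of 2454 with a 95% counting interval of 958.1 to 9007. Ferric reductase frp1 went from 890 and 1779 normalized counts to 8786 and 11053 (2.97 ± 0.36), the iron permease gene fip1 from 1032 and 2608 to 9033 and 11306 (2.62 ± 0.51) and the siderophore transporter gene str3 from 313 and 1077 to 5722 and 8589 (3.59 ± 0.61). In frp1, fip1 and str3 wild-type replicate 2 was well above wild-type replicate 1, and both lay below the mutant. With any 1 library left out the log2 fold change lay between 2.47 and 3.47 for frp1, between 1.95 and 3.29 for fip1 and between 2.70 and 4.48 for str3, and all 3 stayed called. Siderophore synthesis genes were tighter: sib2 had 609 and 693 against 5120 and 5730 (3.06 ± 0.14) and sib1 522 and 479 against 1424 and 1524 (1.56 ± 0.07). With any 1 of the 4 libraries left out 12 or 13 members were called higher.

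The 1 fall in that list was the gene of its repressor, fep1, from 994.5 and 838 to 647 and 550 (-0.61 ± 0.14, limma adjusted p = 0.00865), a call lost without mutant replicate 2. The repressor of iron-using proteins, php4, rose by 0.38 ± 0.11, a call lost without wild-type replicate 1 or either mutant replicate. Of the 15 genes of the iron-using list 10 fell and 2 rose, with php4 among the rises. Without wild-type replicate 1 or without mutant replicate 2, 7 fell. The falls include rip1, sdh2, tim18 and cyc1, already counted with the respiratory genes. The vacuolar iron importer gene pcl1 fell from 2713 and 2335 to 1199 and 1273 (-1.03 ± 0.14), while hem1, the first enzyme of haem synthesis, rose from 4012 and 3587 to 6491 and 6414 (0.77 ± 0.08). Of 16 copper and zinc genes 3 rose, the metallothionein gene zym1 among them, and 3 fell, beside 22.9% and 16.0% of all tested genes. The falls numbered 6 under quantile normalization, 1 without wild-type replicate 2 or mutant replicate 1 and none without mutant replicate 2. The copper transporter gene ctr4 had 3610 and 3585 in wild type and 2162 and 2340 in the mutant, a call lost without any 1 of the 4 libraries, and the copper factor gene cuf1 was at -0.03 ± 0.09.

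Genes of glycolysis and fermentation were higher, while those of the respiratory complexes were lower. Of 18 genes 15 rose and none fell, with a median of 0.78. Under quantile normalization the median was 0.55 and 12 rose while 1 fell. The list took 3.76% and 3.77% of normalized counts in wild type and 6.95% and 6.32% in the mutant. Phosphoglycerate kinase pgk1 went from 57325 and 61394 to 120811 and 119389 (1.02 ± 0.13, 0.39 under quantile normalization), and alcohol dehydrogenase adh1 from 45418 and 51964 to 86093 and 82038 (0.79 ± 0.13). The largest rises were in second copies of enzymes. Pyruvate decarboxylase pdc201 had 40.3 and 40.1 against 961 and 1219, a 27.1-fold difference (4.72 ± 0.18, limma adjusted p = 1.66e-07), beside a rise of 0.85 ± 0.13 in its relative pdc101, and the enolase gene eno102 rose from 17.5 and 27.3 to 206 and 224 (3.23 ± 0.23).

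The glyceraldehyde-3-phosphate dehydrogenase gene gpd3 went from 1161 and 1971 to 39090 and 39299 (4.69 ± 0.21) and its relative tdh1 from 34585 and 42388 to 86459.8 and 79790.5 (1.12 ± 0.14). Of the 31-base stretches of these genes 24.5% and 23.0% occur elsewhere, so reads could pass between them. In a list of 20 genes of glucose-repressed carbon use and its regulation 13 rose and none fell. The rises included fructose-1,6-bisphosphatase fbp1 (56.9 and 81.1 against 191 and 187, 1.46 ± 0.19) and invertase inv1 (45.5 and 31.9 against 182 and 241, 2.43 ± 0.27). The regulator genes rst2 (0.65), scr1 (0.53) and ssp2 (0.21) were also counted among the rises. Of 6 tested hexose transporter genes 3 rose, ght3 (2.30 ± 0.27), ght5 (1.59 ± 0.18) and ght2 (0.74 ± 0.13), and ght8 fell (-0.65 ± 0.15), the last not called without mutant replicate 2. Of the 31-base stretches of ght3, ght5 and ght8, 13.8%, 36.2% and 30.8% are shared with other genes.

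Most ribosome biogenesis genes were lower, each by a small amount. Of 124 ribosome biogenesis genes 94 fell and none rose, with a median of -0.38, a lowest value of -0.65 and 2 genes above 0. The pre-ribosomal factor gene nip7 had 2183 and 2537 normalized counts in wild type and 1418 and 1602 in the mutant (-0.64 ± 0.12, limma adjusted p = 0.0028). The count of falls was 58 without wild-type replicate 2 and 56 without mutant replicate 1, with the median still negative. In a separate list of RNA polymerase I and III genes 16 of 39 fell, or 25 under quantile normalization, and 1 rose, with a median of -0.21. Its lowest member was the subunit gene rpb8, shared by all 3 nuclear polymerases, which fell from 2220 and 2408 to 1411 and 1504 (-0.67 ± 0.08). The mutant was below wild type in each of nip7 and rpb8. For ribosomal proteins themselves 22 of 139 fell and 1 rose, or 6 without mutant replicate 2, with a median of -0.15, a share of falls near the 16.0% of all genes. That count was 4 without wild-type replicate 2, 2 without mutant replicate 1 and 59 under quantile normalization.

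Most genes of the proteasome and of autophagy were higher. In the proteasome 23 of 36 genes rose and none fell, by a median of 0.30. The rises numbered 17 without mutant replicate 2 and 19 to 22 with any other library left out. The regulatory ATPase gene rpt6 had 3688 and 3458 in wild type and 5516 and 5215 in the mutant (0.59 ± 0.07). In autophagy and vacuolar proteolysis 30 of 36 rose and 2 fell, with a median of 0.59, and at most 1 fell with any 1 library left out. The autophagosome membrane protein gene atg8 rose from 494 and 460 to 1007 and 923 (1.01 ± 0.08), the vacuolar carboxypeptidase gene cpy1 from 12652 and 13505 to 30565 and 30695 (1.23 ± 0.10) and the vacuolar protease gene isp6 by 2.02 ± 0.10. Mitofissin gene atg44, which acts in the removal of mitochondria, was one of the falls (-0.29 ± 0.08), a call lost without wild-type replicate 1 or either mutant replicate. The polyubiquitin gene ubi4 rose from 7538 and 6938 to 17477 and 21321 (1.42 ± 0.13).

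Of 32 tested genes of nitrogen starvation and mating 9 rose and 1 fell, against 22.9% and 16.0% of all genes, with 5 higher without wild-type replicate 2 or either mutant replicate and 3 lower without wild-type replicate 1, and the median of 0.25 was -0.0039 under quantile normalization, which gave 5 higher and 5 lower. The rises included mde5 (3.09 ± 0.35, with all of its exons opposite another gene), isp6, mei2 (0.98 ± 0.19), whose RNA-binding protein starts meiosis, and meu10 (0.69 ± 0.16), a call lost without wild-type replicate 2 or mutant replicate 2. The mating factor gene ste11 had 223 and 217 normalized counts in wild type and 236 and 184 in the mutant and was not called. The ammonium transporter gene amt1, which rises in nitrogen starvation, fell from 682 and 682 to 334 and 336 (-1.02 ± 0.18). Among DNA repair genes, 12 of 38 rose and 2 fell, beside the 22.9% and 16.0% of all genes. The falls numbered 5 under quantile normalization, none without wild-type replicate 2 and 1 without either mutant replicate. The 3-methyladenine glycosylase gene mag2 went furthest, from 7.88 and 12.8 to 95.3 and 133 (3.36 ± 0.25).

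Several of the 15 highest named genes belong to none of the groups above. The L-lactate dehydrogenase gene SPAPB1A11.03 had 4 and 5 recovered reads in wild type and 702 and 795 in the mutant, a ratio of normalized levels of 161.6 (95% counting interval 84.88 to 354), with all of its exons opposite another gene. The hydroxyacyl-CoA dehydrogenase family gene SPAC4H3.08 went from 55.2 and 51.1 normalized counts to 2253 and 2418 (5.43 ± 0.18), the isoaspartyl methyltransferase gene pcm2 from 4 and 8 reads to 200 and 260, a ratio of 37.2 (21.1 to 72.6), and the pseudogene SPCC18B5.02c from 77.0 and 100.3 normalized counts to 3159 and 3380 (5.20 ± 0.13). In each of these 4 both mutant libraries were far above both wild-type libraries.

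**Figure D4:**
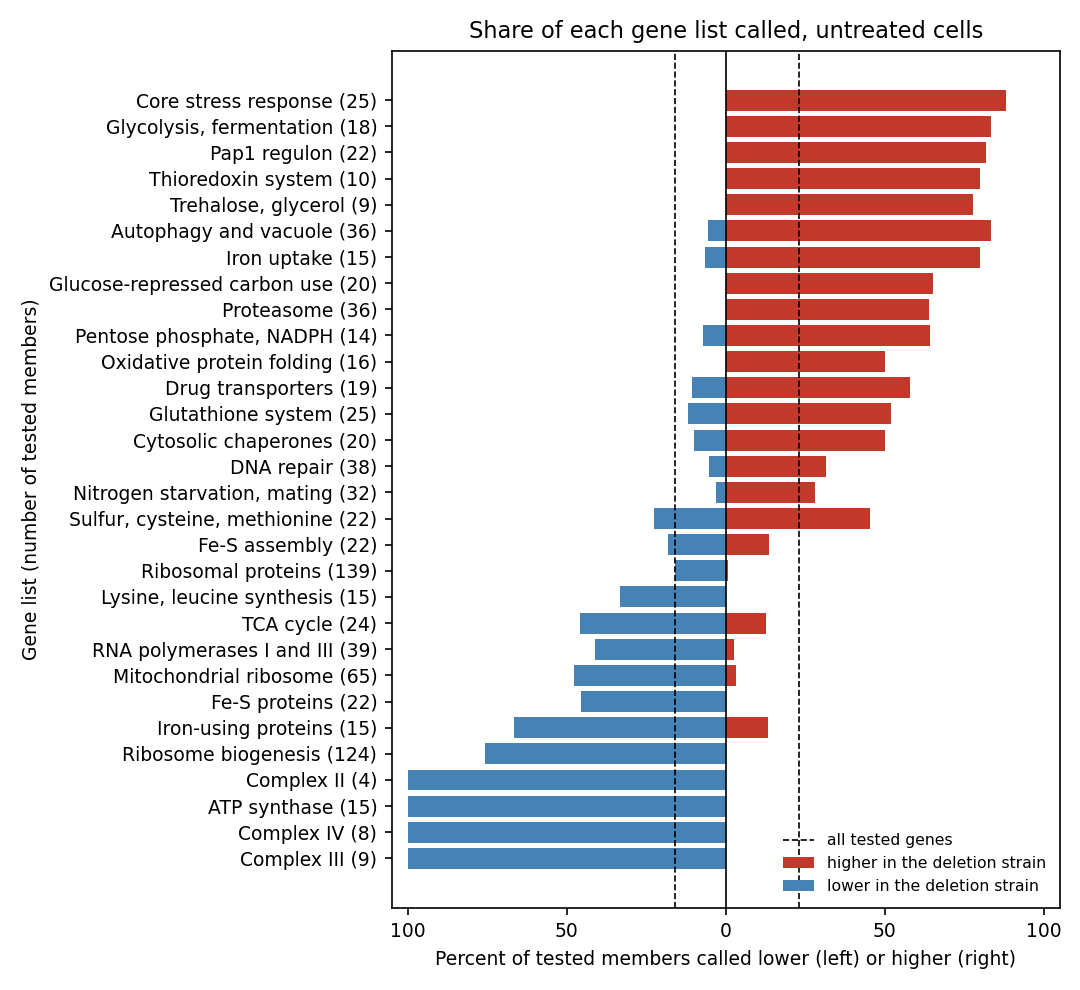
Percent of tested members of 30 gene lists called higher (red, right) or lower (blue, left) in the untreated mutant, with dashed lines at the 22.9% and 16.0% of all tested genes. Complexes II, III and IV and ATP synthase are all lower, ribosome biogenesis is lower with none higher, and core stress, glycolysis, Pap1 and thioredoxin lists are higher with none lower.

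The 4 treated libraries gave a second reading of the strain difference that shares no library with the first, though both came from 1 fit, taken 30 min after 1 mM H2O2. Of the 51 genes at least 2-fold lower in untreated cells 48 were called lower after H2O2 as well (94.1%, against 22.5% of all tested genes called lower there), none was called higher, and their median was -1.50. Of the 279 genes at least 2-fold higher 189 were called higher (67.7%, against 26.5% of all genes), 19 were called lower, and the median was 0.79. The difference between the 2 strain contrasts was itself called for 1378 genes (27.6% of those tested), and for 193 of the 279 and 15 of the 51. Because the 279 and the 51 were chosen on the untreated contrast, which enters this difference, their counts are not comparable with the 27.6%.

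By group, the respiratory fall was present in both readings, with median log2 fold changes of -1.72 untreated and -2.04 treated for complex III, -1.24 and -1.53 for complex IV and -1.10 and -1.17 for ATP synthase. The Pap1 regulon was likewise higher in both, at 1.60 and 1.58. Core stress genes had a median of 1.72 untreated and 0.02 treated, and ddr48 had a strain difference of 5.71 ± 0.16 without and -0.30 ± 0.16 with H2O2 (difference 6.01, limma adjusted p = 1.71e-06). Iron uptake had medians of 1.56 and -0.29, with frp1 at 2.97 ± 0.36 and -1.20 ± 0.36 (difference 4.17, limma adjusted p = 6.08e-04). Ribosome biogenesis had opposite signs, with 94 lower and none higher untreated and 62 higher and 12 lower treated, and medians of -0.38 and 0.21. Thioredoxin reductase went the other way from the stress genes, since trr1 differed between the strains by 0.69 ± 0.08 without and 2.29 ± 0.08 with H2O2 (difference -1.60, limma adjusted p = 4.22e-05).

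The response of wild type to H2O2 is set beside the deletion for a few genes. For ddr48 the H2O2 response of wild type, which uses the same untreated wild-type libraries, was 9.28, beside 5.71 for the deletion alone. For gst2 the order was opposite, 2.79 for H2O2 in wild type and 4.66 for the deletion, and for tpx1 both were 2.11. The sulfate transporter gene sul2 was at -1.53 for H2O2 in wild type and 2.03 for the deletion, and the respiratory gene qcr7 was at 0.40 and -2.05. Because the wild-type control is shared, these pairs of values are set side by side only.

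**Figure D5:**
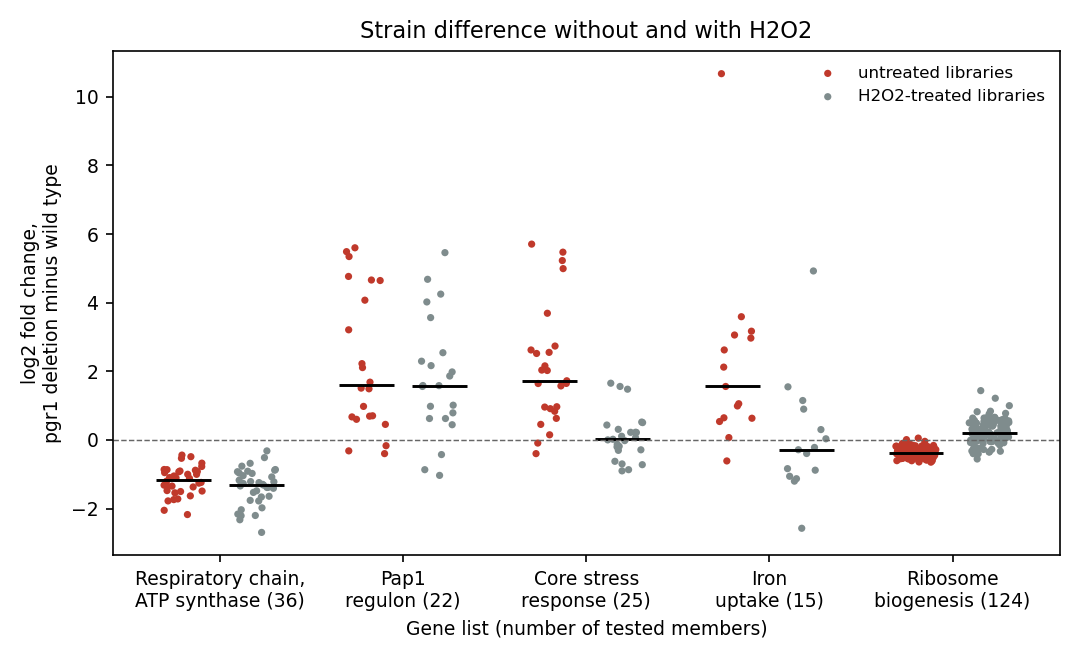
Log2 fold change, mutant minus wild type, of the members of 5 gene lists in the untreated libraries (red) and in the separate H2O2-treated libraries (grey), with bars at the medians. The respiratory list stays below 0 and the Pap1 regulon above it in both, core stress and iron uptake medians go from 1.72 to 0.02 and from 1.56 to -0.29, and the ribosome biogenesis median crosses from -0.38 to 0.21.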

How the data were processed

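Poly(A) RNA of 8 libraries was sequenced, and the authors deposited 1 table of gene-level signal, counts divided by a library's size factor. FastQC, Trimmomatic, Salmon, DESeq2 and build ASM294v2 are named, per the submitters' processing notes, with versions not stated there. Dividing out the smallest steps gave whole numbers for 99.98% to 100.0% of values within 0.05. These are the gene counts behind the table, called reads here, and how reads were assigned to genes was not examined. The table has 5165 genes and 1 line with no gene, which was left out. Of the IDs, 5129 matched the reference annotation and 36 did not, and no coordinate was taken from it.

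A gene was tested where 2 or more of the 4 untreated libraries reached a value of 10 (5001 genes, with 164 left out), as log2(value + 1) in limma 3.58.1 under R 4.3.3. All 8 libraries entered 1 fit with 4 group means and a trended prior variance (4 residual and 4.78 prior degrees of freedom), with Benjamini-Hochberg adjustment over all tested genes at 0.05. The exact permutation test of 2 against 2 libraries cannot go below p = 0.333. Alternatives were quantile and TMM scaling, other pseudocounts (0.5 and 5) and filters, the 4 untreated libraries alone, no variance trend, a replicate block, each library left out, and edgeR 4.0.16 and DESeq2 1.42.0 on recovered reads. On simulated data for this comparison, 82.1% of 67 genes changed 1.5-fold, 98.5% of 67 changed 2-fold and 100.0% of 66 changed 4-fold were called among 4977 genes. Of the simulated calls 4.59% were false. Only these genes were changed, and each library was drawn independently around the wild-type mean. The false share therefore does not cover deviations that libraries have in common, the dependence on scaling, or changes in as many genes as were called here.

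The members and the 51 gene lists were chosen with earlier results of these data known. From the lists, 69 entries whose product in the annotation was another gene or function were removed, 11 of them by product name after the list counts had been seen. Genes are named by rule: the 15 highest and 15 lowest called genes, up to 4 rises and 4 falls of each list, and the regulators and members of the thiol and mitochondrial lists, 340 in all. Other genes described were chosen after their values were seen. Genes with over 50% of exon bases opposite another gene (575) or at least 5% of 31-base stretches shared with another gene (212) are marked as uncertain. The libraries were stranded, but the gene values do not show whether strand was used in counting. The mark for opposite genes is therefore a caution only. For genes near 0 in wild type the ratio of pooled reads is given with a 95% exact interval. It covers counting error only, and not the assignment of reads to genes.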

Additional observations from a re-analysis of the deposited data

Results flagged for a closer look

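Of the 30 highest and lowest genes of the untreated comparison, 16 had a strain difference that itself differed between untreated and H2O2-treated cells (limma adjusted p below 0.05 for the difference of the 2 contrasts). Over all tested genes 27.6% had such a call. The 30 genes were picked for extreme untreated values, which also enter the difference. That choice favours a call and a smaller treated value, so the count is not to be set against that share. Each value below is the untreated log2 fold change of the mutant over wild type minus the treated one. Among genes higher in the untreated mutant, the difference was 6.01 for ddr48, 5.75 for shu1, 5.69 for lsd90, 5.21 for cta3, 5.03 for SPAPB1A11.03, 3.99 for zym1 and 3.54 for SPAC4H3.08. It was 1.99 for pcm2, 1.32 for SPBC23G7.10c, 1.24 for mug108 and 0.92 for SPCC663.08c. All 11 of these had a smaller rise, or none, after H2O2. Among respiratory genes it was 0.98 for qcr9, 0.56 for qcr10 and 0.46 for cyt1, which were further down after H2O2, and -0.56 for qcr8. For the phosphate transporter gene SPBC1703.13c it was -0.38, and its fall was smaller after H2O2.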

How the results depend on the processing

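The number of genes called higher was within 1.5 times of 1144 under every alternative run, and no called gene named changed direction, whereas genes not called and near 0, such as sir1 and grx4, did. Quantile normalization moved the number called lower from 798 to 1451. With 1 of the 4 untreated libraries left out, 881 to 1024 genes were called higher and 472 to 721 lower. The labels do not say that equal replicate numbers mark a shared culture or day, so the replicate block is an alternative only. It gave 1306 higher and 1046 lower, and same-numbered libraries deviated together with a correlation of 0.434. On recovered reads edgeR called 1107 higher and 907 lower and DESeq2 1055 and 753. For the named genes, leaving out 1 library ended a call in 161 cases and made a call in 5. In the other 1194 cases a gene stayed called or stayed not called. Depth was even, but 2 libraries a group leave small changes to the spread of single libraries.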
